A study of Mus musculus with 4 samples.

Results

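The metallothionein genes Mt1 and Mt2, the zinc exporter gene Slc30a1 and the zinc-sensing transcription factor gene Mtf1 were followed across the immune cells of MC38 tumours. The 4 genes were taken by symbol from the 31253 features of the deposited matrices, and all 4 were found there. They were picked with their levels in these cells known, so their levels across cell types are a description and carry no test.

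Single-cell RNA-seq libraries were made from CD45+ immune cells, sorted out of subcutaneous tumours of MC38, a mouse colon carcinoma line. The hosts were wild-type mice (WT, 2 libraries) or mice with a conditional knockout of Ufl1, the ligase of the ubiquitin-like modifier UFM1 (cKO, 2 libraries). All were 8 weeks old when they received 100000 MC38 cells, tumours were taken at day 16, and no treatment is named for either group. T cells are named in the series title as the site of the ablation, but the labels give neither the Cre line, the deleted exons, the alleles of the WT animals, the sex nor the number of animals behind a library, so p-values measure only the spread between these libraries.

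Metallothioneins are small, cysteine-rich proteins of the cytosol that bind zinc and copper and release zinc again when their thiols are oxidised. Free zinc in a cell is sensed by the zinc-finger protein encoded by Mtf1, which moves to the nucleus, binds metal response elements in promoters and raises transcription of Mt1, Mt2 and Slc30a1. The exporter encoded by Slc30a1 (ZnT1) sits in the plasma membrane and removes zinc. Glucocorticoids, oxidative stress and hypoxia are also known to raise metallothionein transcripts. Macrophages and activated lymphocytes are among the cells in which metallothioneins have been studied.

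In GENCODE M21 (GRCm38) Mt2 lies at chr8:94172664-94173568 and Mt1 at chr8:94179082-94180327, both on the plus strand and 5513 bases apart. Slc30a1 lies at chr1:191906767-191913247 and Mtf1 at chr4:124802104-124849800, also on the plus strand. The proximal promoters of the 2 metallothionein genes are shown because metal response elements are where the Mtf1 protein binds, and because Mt1 and Mt2 were high in the same cells below. They are the 250 bases before the RefSeq gene start in GRCm38.p6, plus strand, 5′ to 3′, with matches to the core of the element (TGCACNC or TGCGCNC, on either strand) in capitals.
Mt1, chr8:94178839-94179088: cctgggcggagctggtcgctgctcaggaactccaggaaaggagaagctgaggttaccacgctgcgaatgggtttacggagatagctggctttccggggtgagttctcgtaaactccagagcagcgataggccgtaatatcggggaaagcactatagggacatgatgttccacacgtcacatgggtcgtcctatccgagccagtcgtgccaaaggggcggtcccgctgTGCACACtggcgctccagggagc
Mt2, chr8:94172368-94172617: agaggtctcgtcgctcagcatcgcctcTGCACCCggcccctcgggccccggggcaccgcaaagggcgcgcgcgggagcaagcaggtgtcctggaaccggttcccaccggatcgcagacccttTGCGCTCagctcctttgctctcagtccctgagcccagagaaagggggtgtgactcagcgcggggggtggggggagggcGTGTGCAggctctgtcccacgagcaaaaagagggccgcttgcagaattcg
The Mt1 window held 1 match, starting 23 bases before the gene start. The Mt2 window held 3 matches, starting 223, 128 and 50 bases before it, the last on the minus strand. The Slc30a1 window held 1 match, 43 bases before the start, and the Mtf1 window held 0. Of 32851 RefSeq promoter windows of this length, 21.4% held at least 1 match, 4.30% at least 2 and 0.770% at least 3. The first 50 bases from the gene start on held 2 more matches in Mt1, 1 in Mt2, 1 in Slc30a1 and 0 in Mtf1, so windows of 300 bases held 3, 4, 2 and 0. At that length 1.31% of all windows held at least 3 matches and 0.295% at least 4. A match is a string of letters in this window and not a measured site, and it moves with the annotated start.

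The files held 7352 to 9466 barcodes and 64141857 to 79747752 UMIs (unique molecular identifiers, 1 per captured transcript) per library, and 30279 cells were kept. Cell types were set by gates on marker UMIs, which placed 19040 cells in 4 lineages (4606 macrophages, 6892 monocytes, 4165 T cells and 3377 NK cells) and none in 2 of them. Markers that set no gate followed the labels of the gates. Klrd1, a receptor of NK cells, was at 684 to 779 CPM (counts per 1000000 UMIs of the gate) in NK cells and 8.37 to 11.04 in macrophages. Lyz2, a myeloid lysozyme, was at 11143 to 11403 CPM in monocytes and 25.3 to 54.6 in NK cells. Wherever 4 values stand in a row, the 2 WT libraries come first and the 2 cKO libraries last, each pair by replicate number. Ufl1 was at 15.5, 16.7, 14.5 and 19.3 CPM in T cells. These counts pool the whole gene, so they check nothing about a deleted part. cKO replicate 2 stood apart in sex-linked transcripts, with Xist at 290.2 CPM against 0.127 to 1.01 in the other libraries. Ddx3y, a gene of the Y chromosome, was at 50.5, 51.0, 46.7 and 0.173 CPM. By these transcripts cKO replicate 2 was female and the other libraries male. Sex was not a term in the comparison of cKO with WT below, and its part there was not tested. WT replicate 1 and cKO replicate 2 shared 471 cell barcodes, against 84 to 101 for the other pairs of libraries.

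Mt1 was highest in macrophages, lower in monocytes and lowest, on average, in T and NK cells. In macrophages (C1q-positive cells) it was at 418, 617, 841 and 396 CPM. In monocytes it was at 179.5, 182, 235 and 152 CPM. The ranges of these 2 lineages did not overlap. T cells were at 28.1, 120.5, 180.3 and 93.3 CPM and NK cells at 61.9, 53.4, 87.7 and 68.7 CPM. The lymphoid ranges overlapped each other, and WT replicate 1 was the low library of the T cells. T cells of cKO replicate 1 lay within the monocyte range, though below the monocytes of the same library. B cells, gated in the same way, held 25.6, 5.49, 6.95 and 9.38 CPM of Mt1 from only 3 to 16 UMIs.

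Within the myeloid cells, macrophages with Mmp12 transcripts held most Mt1. Mmp12 encodes macrophage elastase, and in these 321 cells Mt1 was at 989.7, 2098, 2224 and 1555 CPM. Macrophages with neither Mmp12 nor Cx3cr1 (1670 cells) held 493.5, 749, 1000.2 and 454 CPM, and those with the chemokine receptor gene Cx3cr1 (1057 cells) held 280.3, 319.7, 278 and 164 CPM. The order was the same in every library, with Mmp12 macrophages first and Cx3cr1 macrophages last. Classical monocytes, defined by Ly6c2, held 208, 223, 291 and 215 CPM. Monocytes with Arg1, the arginase gene, held 156, 256, 283 and 260.2 CPM, which overlapped the classical ones. Interferon-induced monocytes, gated on Rsad2 and the Ifit genes, held 95.9, 113, 150.2 and 90.0 CPM. Non-classical monocytes held 131, 81.5, 98.0 and 86.4 CPM. Classical monocytes lay above the interferon-induced and non-classical ones in each library, without overlap.

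Mt2 followed Mt1 in macrophages and was lower still in monocytes. Macrophages held 21.7, 39.8, 57.0 and 29.7 CPM of Mt2, against 2.53, 1.85, 3.84 and 5.19 CPM in monocytes, and the ranges did not overlap. Mmp12 macrophages held 101, 206, 199.7 and 167 CPM, above every other gate. Macrophages with neither Mmp12 nor Cx3cr1 held 30.1, 66.6, 65.6 and 35.2 CPM, and Cx3cr1 macrophages 3.98, 7.53, 8.55 and 2.31 CPM. The number of Mt1 UMIs per Mt2 UMI, a ratio of counts and not of levels per length, was therefore higher, over whole lineages, in monocytes (70.9, 98.5, 61.2 and 29.2) than in macrophages (19.2, 15.5, 14.8 and 13.3), T cells (17.9, 8.20, 6.50 and 6.74) or NK cells (16.0, 11.4, 8.00 and 5.64). No lymphoid library reached the lowest monocyte library. Within macrophages the ratio was uneven. It was 70.4, 42.5, 32.6 and 71.1 in Cx3cr1 macrophages, within the monocyte range, and 9.76, 10.2, 11.1 and 9.29 in Mmp12 macrophages.

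**Figure D1:**
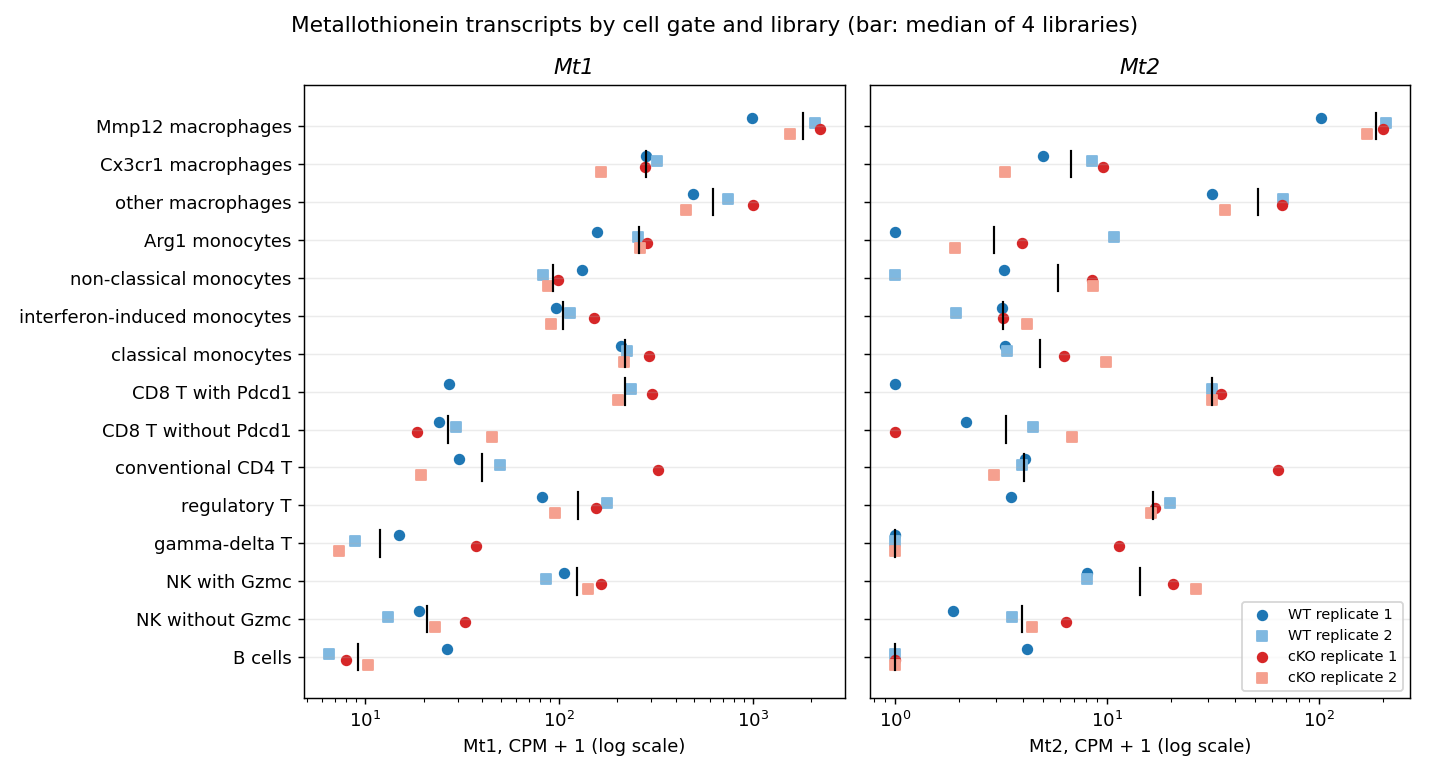
Mt1 (left) and Mt2 (right) in 14 finer gates and B cells. The x axis is CPM + 1 on a log scale, each point is 1 library, and each bar is the median of the 4 libraries. Mmp12 macrophages hold the highest median of both genes, at 1827 CPM for Mt1 and 183.6 CPM for Mt2.

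Ordered by the median of the 4 libraries, Mt1 ran from 1827 CPM in Mmp12 macrophages to 10.9 CPM in gamma-delta T cells over the 14 finer gates, a ratio of 168. The order between them was macrophages with neither Mmp12 nor Cx3cr1 (621), Cx3cr1 macrophages (279), Arg1 monocytes (258), classical monocytes (219), CD8 T cells with Pdcd1 (218), regulatory T cells (124), NK cells with Gzmc (123), interferon-induced monocytes (104.5) and non-classical monocytes (92.2). Below these came conventional CD4 T cells (39.1), CD8 T cells without Pdcd1 (25.8) and NK cells without Gzmc (19.9). Neighbours in this order overlapped between libraries, except that the second gate did not overlap the third. For Mt2 the order began with Mmp12 macrophages (183.6), which did not overlap the next gate, macrophages with neither Mmp12 nor Cx3cr1 (50.4). CD8 T cells with Pdcd1 (30.1), regulatory T cells (15.5) and NK cells with Gzmc (13.3) then stood ahead of Cx3cr1 macrophages (5.76) and of all 4 monocyte gates (1.95 to 4.90), though their ranges overlapped. Gamma-delta T cells were at 0 in 3 of 4 libraries.

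Among CD8 T cells, those with transcripts of Pdcd1, the gene of the checkpoint receptor PD-1, held more Mt1 in 3 of the 4 libraries. The 827 CD8 T cells with at least 2 Pdcd1 UMIs held 26.1, 234.5, 300.8 and 201.5 CPM of Mt1. The 706 CD8 T cells with none held 23.1, 28.4, 17.6 and 44.3 CPM. Within a library the ratio of the 2 levels was 1.13, 8.25, 17.1 and 4.55. WT replicate 1 was the library without a difference, and its gate with Pdcd1 held only 55 cells and 14 Mt1 UMIs (95% Poisson interval 14.3 to 43.8 CPM, which covers counting error only, as do all such intervals here). CD8 T cells with exactly 1 Pdcd1 UMI held 17.3, 65.9, 60.4 and 39.4 CPM. These levels lay between those of the other gates in WT replicate 2 and cKO replicate 1 only. In WT replicate 1 and cKO replicate 2 they lay below both. A single cell of cKO replicate 1 held 82.6% of the Mt1 and Mt2 UMIs of this gate, and Mt1 was at 13.2 CPM without it.

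Mt2 differed between the same gates in 3 of the 4 libraries. CD8 T cells with Pdcd1 held 0, 30.1, 33.5 and 30.2 CPM of Mt2, from 0, 126, 39 and 99 UMIs, and the 0 of WT replicate 1 allows up to 5.59 CPM (3 counts). CD8 T cells without Pdcd1 held 1.16, 3.50, 0 and 5.87 CPM. The 3 libraries with Mt2 in the first gate lay above every library of the second. Cells with Pdcd1 were also deeper, at a median of 7530 to 11516 UMIs against 5543 to 7629. After each cell was thinned to 2000 UMIs, 9.26%, 22.4%, 20.4% and 18.3% of cells with Pdcd1 kept an Mt1 UMI, against 3.23%, 4.35%, 4.41% and 3.35% of those without. The share of cells with Mt1 was thus higher with Pdcd1 in each library at equal depth, though in WT replicate 1 it rested on 5 of 54 against 4 of 124 cells. The thinned shares for Mt2 were 0%, 3.87%, 3.06% and 4.66% with Pdcd1 and 0.806%, 0.395%, 0% and 1.26% without, so WT replicate 1 went the other way.

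NK cells that carried Gzmc, the granzyme C gene, differed from other NK cells in both metallothioneins and in every library. The 900 NK cells with at least 3 Gzmc UMIs held 104.8, 84.8, 163 and 140.5 CPM of Mt1, and the 1829 without held 18.0, 12.1, 31.6 and 21.8 CPM. The ratio was 5.82, 7.0, 5.17 and 6.44, and the 2 gates did not overlap. Mt2 was at 7.05, 7.07, 19.5 and 25.4 CPM in the first gate and 0.871, 2.55, 5.43 and 3.42 CPM in the second, the latter from 3, 4, 22 and 8 UMIs. Cells with Gzmc had a median of 14266 to 16880 UMIs against 4793 to 5962. At 2000 UMIs per cell, 8.90%, 10.9%, 14.2% and 9.68% of them kept an Mt1 UMI, against 2.02%, 0.889%, 5.24% and 2.72% of NK cells without Gzmc.

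**Figure D2:**
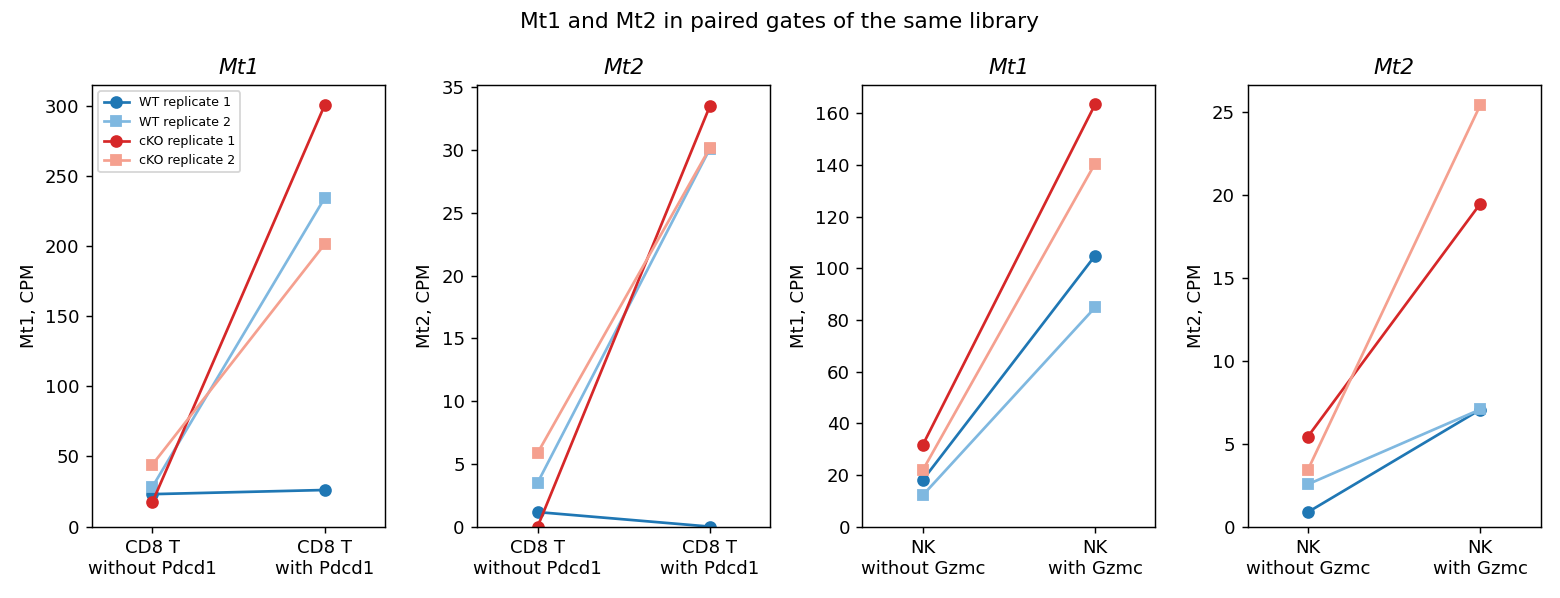
Mt1 and Mt2 in CD8 T cells without and with Pdcd1 (2 left panels) and in NK cells without and with Gzmc (2 right panels). The y axis is CPM on a linear scale and each line joins the 2 gates of 1 library. All 4 lines of each NK panel rise, and WT replicate 1 is nearly flat for Mt1 in CD8 T cells, at 23.1 and 26.1 CPM.

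The other T cell gates differed from each other in level and in evenness. Regulatory T cells, marked by Foxp3, held 80.7, 176, 153 and 94.2 CPM of Mt1. Gamma-delta T cells held 13.9, 7.84, 36.3 and 6.35 CPM. Conventional CD4 T cells held 29.6, 48.6, 322 and 18.5 CPM, so cKO replicate 1 was far above the others. In that library 1 cell of 246 held 494 of the 563 Mt1 and Mt2 UMIs (87.7%). Without the highest cell of each library, conventional CD4 T cells held 7.86, 29.0, 43.0 and 10.8 CPM of Mt1. The same cell carried 43.1% of the metallothionein UMIs of all T cells of cKO replicate 1, and without the highest cells the T cell values were 25, 114, 106.5 and 85.0 CPM.

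Free RNA from macrophages was gauged from their C1q transcripts, which lymphocytes do not make. Had Mt1 been carried into other cells in the same proportion as C1q, it would account for 0.302 to 1.86% of the Mt1 of NK cells with Gzmc and 0.796 to 10.2% of that of CD8 T cells with Pdcd1. The share was larger where Mt1 was low: 6.04 to 14.9% in NK cells without Gzmc, 9.53 to 26.7% in CD8 T cells without Pdcd1 and 8.80 to 85.5% in B cells. Monocytes were gated on low C1q, so the measure does not apply to them.

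Before thinning, Mt1 was found in most macrophages and in a minority of T and NK cells. The share of cells with Mt1 was 31.2 to 43.7% in NK cells with Gzmc and 14.5 to 48.6% in CD8 T cells with Pdcd1. A UMI of Mt1 was seen in 66.6%, 68.2%, 72.2% and 59.0% of macrophages, 40.1%, 37.0%, 40.5% and 37.0% of monocytes, 8.99%, 21.7%, 16.3% and 14.7% of T cells and 12.5%, 16.0%, 16.6% and 9.72% of NK cells. At 2000 UMIs per cell these shares were 41.3%, 45.9%, 49.8% and 34.4%, then 18.4%, 18.5%, 19.7% and 16.4%, then 4.15%, 10.8%, 8.36% and 6.66%, and last 4.13%, 5.54%, 6.93% and 3.97%. The lineages kept their order, with T and NK cells overlapping. B cells, whose median depth was only 2959 to 3607 UMIs, kept an Mt1 UMI in 0.667 to 4.32% of cells at that depth. In Mmp12 macrophages the thinned share was 65.2%, 80.7%, 79.8% and 73.6%. At the thinned depth Mt2 was seen in 8.46%, 11.4%, 14.8% and 17.9% of macrophages with an Mt1 UMI, and in 0 to 0.814% of those without one, so the 2 genes were found together in the same macrophages.

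The metallothionein UMIs sat in a minority of each lineage. The 10% of macrophages with most Mt1 and Mt2 UMIs held 58.2%, 58.8%, 60.9% and 59.3% of them. The corresponding share was 69.1 to 72.0% in monocytes, 82.9 to 100% in T cells and 88.4 to 99.7% in NK cells. Transcripts of Fth1, the ferritin heavy chain, were spread more evenly in macrophages, with 29.9 to 31.0% in the highest 10% of cells. Fth1 is far more abundant and was not matched for level, and few counts alone concentrate a gene in few cells.

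**Figure D3:**
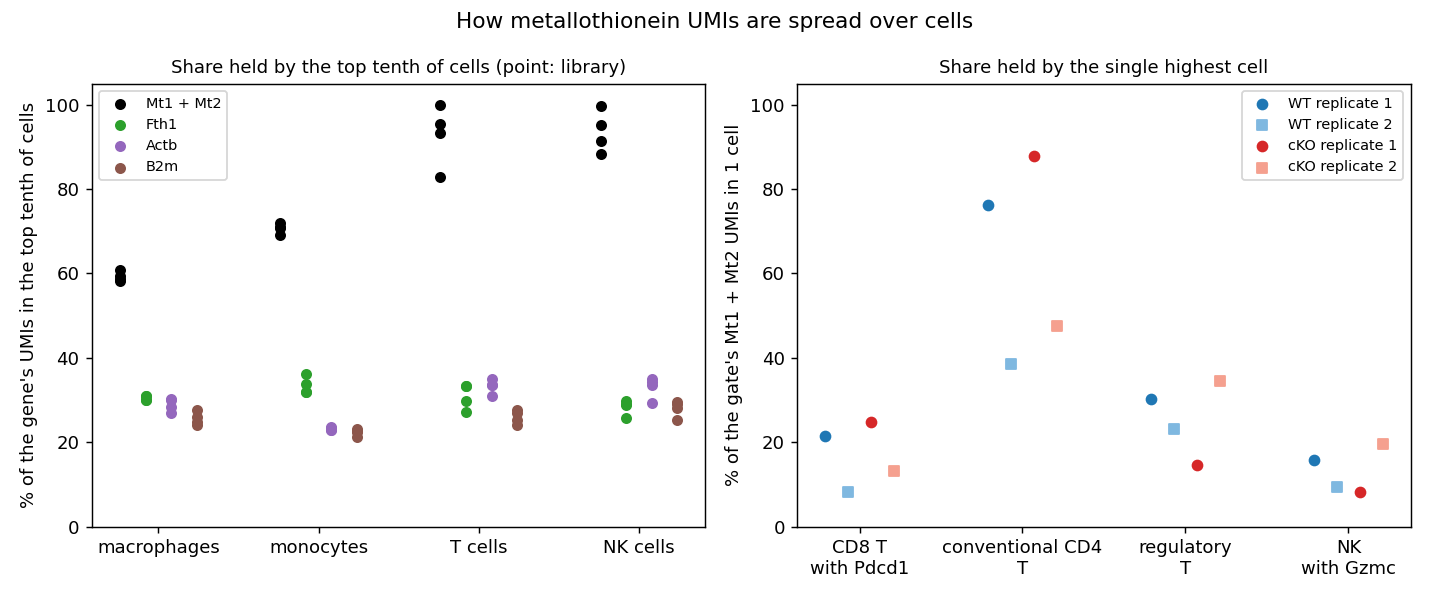
Spread of metallothionein UMIs over cells. Left: percent of a gene's UMIs held by the highest 10% of cells in 4 lineages, 1 point per library, for Mt1 and Mt2 summed and for Fth1, Actb and B2m. Right: percent of the Mt1 and Mt2 UMIs of a gate held by its single highest cell. In conventional CD4 T cells of cKO replicate 1 that cell held 87.7%.

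Slc30a1 did not follow the metallothioneins across cells, although all 3 genes are known targets of the same factor. It was at 19.5, 17.1, 15.7 and 17.9 CPM in macrophages and at 35.8, 30.1, 32.2 and 26.2 CPM in monocytes, the reverse of the order for Mt1. T cells held 18.4, 17.4, 17.2 and 16.4 CPM. NK cells held 34.6, 17.5, 33.7 and 21.2 CPM, with replicate 1 of each genotype high and replicate 2 low. Over the finer gates the median was highest in interferon-induced monocytes, which held 48.0, 48.8, 40.7 and 35.1 CPM. It was lowest in Mmp12 macrophages, which held 8.05, 5.88, 10.1 and 21.2 CPM from 4 to 11 UMIs. Mmp12 macrophages were thus first of 14 gates for Mt1 and Mt2 and last for Slc30a1. The ratio of the highest to the lowest median was 4.88, and every gate overlapped its neighbour in the order.

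Mtf1, the gene of the sensor, was nearly level. It was at 15.5, 17.7, 16.7 and 20.7 CPM in macrophages, 18.7, 18.0, 17.8 and 19.5 in monocytes, 18.4, 19.0, 17.1 and 23.9 in T cells and 24.1, 21.2, 22.9 and 22.9 in NK cells. The NK range lay above those of macrophages and monocytes and overlapped that of T cells. Its medians over the finer gates ran from 13.3 CPM in Mmp12 macrophages to 23.0 CPM in NK cells with Gzmc, a ratio of 1.72, and all neighbours overlapped. Taking the mean over libraries in place of the median, the ratio of highest to lowest gate was 107 for Mt1, 78.7 for Mt2, 3.82 for Slc30a1 and 1.66 for Mtf1. The median ratio over 6296 genes with at least 5 CPM in every gate was 2.77 (quartiles 2.12 and 4.11). Mt2 is not in that set, since its mean was 2.14 CPM in interferon-induced monocytes. The set also leaves out genes confined to some gates, whose ratios can be large.

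**Figure D4:**
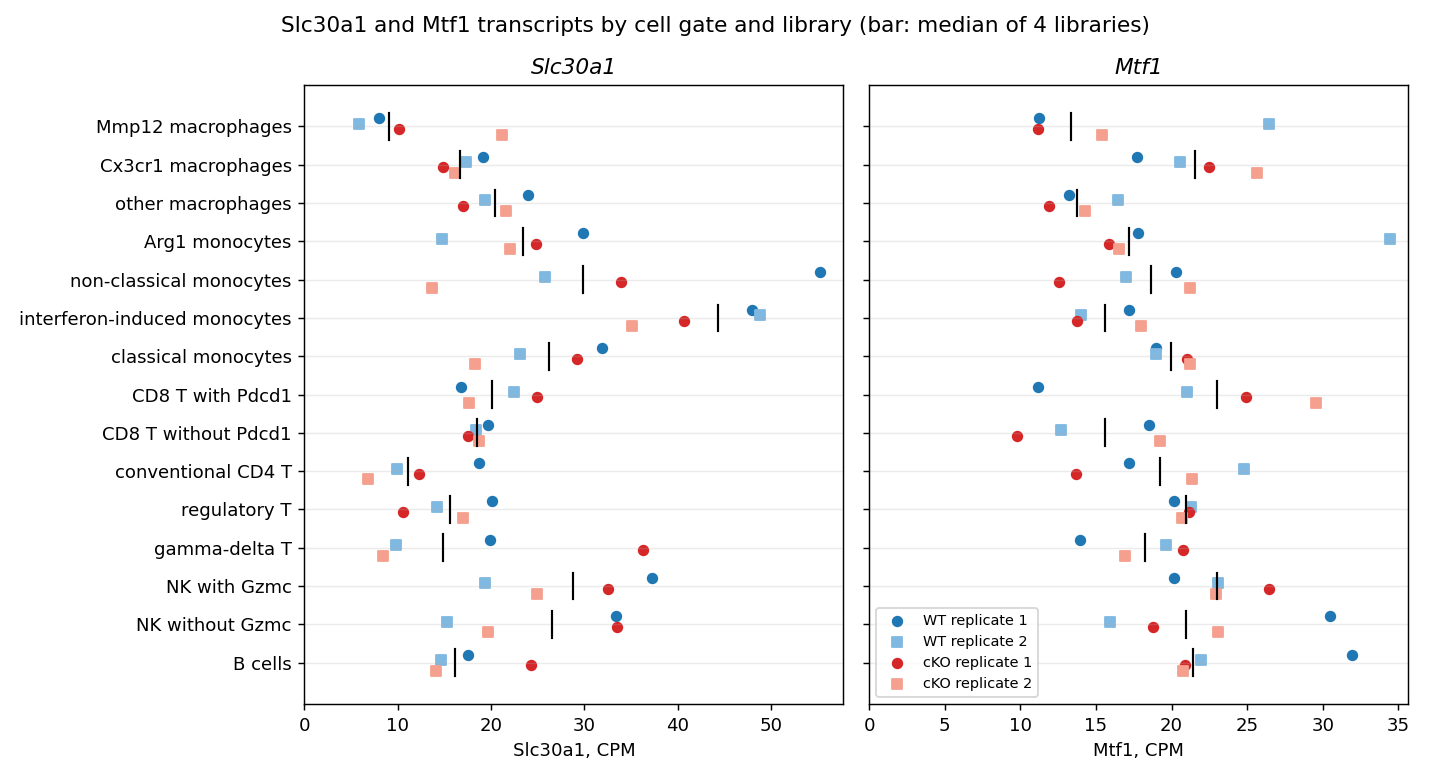
Slc30a1 (left) and Mtf1 (right) in 14 finer gates and B cells. The x axis is CPM on a linear scale, each point is 1 library, and each bar is the median of the 4 libraries. Interferon-induced monocytes have the highest median of Slc30a1 (44.3 CPM) and Mmp12 macrophages the lowest (9.09 CPM), while Mtf1 medians stay between 13.3 and 23.0 CPM.

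The genes whose pattern over the 14 gates was most like that of each gene were ranked by Pearson's r of log2(CPM + 1) among 9534 genes. The gates share libraries, and the correlations are a description. For Mt1 they were Gnpda1 (r = 0.934), Spg21 (0.931), Mrps18a (0.924), Pdcd2l (0.919) and the glycolytic enzyme gene Tpi1 (0.913). For Mt2 they were Zranb3 (0.892), the DNA methyltransferase gene Dnmt3a (0.879), the heme transporter gene Slc48a1 (0.871), Chchd5 (0.841) and Tm4sf5 (0.836). Of these, Zranb3 (10.2 CPM) and Tm4sf5 (17.8 CPM) reached the 10 CPM required for ranking only in Mmp12 macrophages, where Mt2 was highest. Their next levels were 4.90 and 9.69 CPM, in macrophages with neither Mmp12 nor Cx3cr1. The likeness of these genes to Mt2 is therefore partly set by that cut. For Slc30a1 they were Ggct (0.914), Zyx (0.912), Dpy19l1 (0.880), Mafk (0.876) and Zfp800 (0.854). For Mtf1 they were the zinc transporter gene Slc39a9 (0.853), Lpgat1 (0.815), Copb1 (0.785), Fut11 (0.784) and Yipf5 (0.771). Mt1 and Mt2 correlated with each other at 0.761, whereas r was −0.273 between Mt1 and Slc30a1 and −0.578 between Mt2 and Slc30a1.

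Other genes of zinc handling and of the known inducers of metallothioneins were tested between the same gates with edgeR's quasi-likelihood test, Benjamini-Hochberg adjusted over all genes, with the library as a block. Between NK cells with and without Gzmc, 50.1% of 9332 genes passed (24.7% higher, 25.4% lower). Of 10 zinc importers of the Slc39 family tested, 3 were higher and 0 lower. Slc39a14, an importer of zinc and iron, was at 23.5, 13.4, 16.0 and 15.9 CPM with Gzmc and 8.71, 3.83, 5.92 and 7.27 without (log2 fold change 1.40 ± 0.19, SE). Slc39a11 (0.83) and Slc39a6 (0.41) were the others. None of 4 other Slc30 exporters passed. Of 13 hypoxia-induced genes 9 were higher, among them Hilpda (1.803), Pgk1 (1.14) and Ldha (0.56), and 1 was lower. Of 9 glucocorticoid-induced genes 2 were higher and 6 lower, led by Sgk1 (−2.12). Of 12 genes of iron and copper handling 3 were higher, with the transferrin receptor gene Tfrc at 1.38, and 3 lower. Of 10 oxidative stress genes 4 were higher and 3 lower, and of 14 heat shock and dissociation genes 2 were higher and 8 lower.

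Between CD8 T cells with and without Pdcd1, 13.7% of 8373 genes passed (6.56% higher, 7.11% lower). Of 10 importers 1 passed. Slc39a4, known as the zinc importer of the intestine, was at 29.8, 14.8, 22.3 and 21.03 CPM with Pdcd1 and 17.4, 6.12, 9.77 and 11.7 without (log2 fold change 0.91 ± 0.22, adjusted p = 0.0215 by edgeR). The number of genes that passed in this comparison was 1144, and it was 681 without WT replicate 2 and 370 without cKO replicate 2. None of 4 exporters passed. Of 13 hypoxia-induced genes 5 were higher and 1 lower, and Hilpda, which coats lipid droplets, was at 272, 982, 420.2 and 620.1 CPM against 59.0, 73.9, 93.8 and 74.2 (log2 fold change 2.84 ± 0.22). Of 9 genes of iron and copper handling 0 were higher and 2 lower (Ftl1 −0.44, Slc11a2 −1.12). Of 9 oxidative stress genes 2 were higher and 0 lower (Txn1 0.35, Osgin1 1.41), of 9 glucocorticoid-induced genes 1 was higher and 1 lower, and of 14 heat shock and dissociation genes 3 were higher and 2 lower (Hspa1a 0.65, Junb −0.44).

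Between monocytes with and without Arg1, 10.6% of 9846 genes passed. The hypoxia list was higher almost throughout, with 13 of 15 genes higher and 0 lower (5.80% of all genes were higher), led by Vegfa (1.92), Ero1l (1.92) and Bnip3 (1.94). Mt1 differed little beside them, at 156, 256, 283 and 260.2 CPM with Arg1 and 188, 181.5, 239 and 145 without, and WT replicate 1 went the other way. Slc39a14 was the 1 of 9 importers that passed (0.96 ± 0.22), and none of 5 exporters did. Of 13 genes of iron and copper handling 3 were higher (Hmox1 0.93, Ftl1 0.50, Fth1 0.50) and 2 lower. Oxidative stress genes gave 2 higher and 1 lower of 11, glucocorticoid-induced genes 3 higher and 0 lower of 10, and heat shock genes 0 higher and 2 lower of 14. S100a8, whose protein binds zinc outside cells, was lower (−1.19) and S100a9 did not pass.

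Between macrophages and monocytes, 60.9% of 11000 genes passed (30.2% higher in macrophages, 30.7% lower). Of 10 importers 4 were higher in macrophages, including Slc39a8 (1.42) and Slc39a3 (0.38), and Slc39a1 was lower (−0.32). Of 5 exporters Slc30a5 was higher (0.24) and Slc30a7 lower (−0.27). Iron and copper genes gave 5 higher and 4 lower of 14, with Fth1 at 0.62. Oxidative stress genes gave 2 higher and 5 lower of 11, glucocorticoid-induced genes 1 higher and 8 lower of 10, hypoxia-induced genes 7 higher and 2 lower of 16, heat shock genes 2 higher and 9 lower of 14, and both S100 genes were lower. The other metallothionein genes, Mt3 and Mt4, had too few counts to be tested in any of these 4 comparisons.

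The comparison of cKO with WT asked whether the 4 genes differed in any lineage between the libraries labelled cKO and WT. The 4 genes were chosen with earlier results of these data known, so their p-values below are not independent of that choice. By edgeR's quasi-likelihood test with Benjamini-Hochberg adjustment over all genes, no gene of any kind passed in any of the 4 lineages. At an unadjusted p under 0.05 there were 266 of 10898 genes in macrophages, 641 of 11074 in monocytes, 228 of 10996 in T cells and 411 of 10433 in NK cells. DESeq2 called 0, 4, 4 and 4 genes, none of them among the 4 followed here.

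Mt2 was higher in both cKO libraries than in both WT libraries in NK cells and in monocytes, without reaching the threshold in either. In NK cells it was at 3.88, 4.69, 10.96 and 12.2 CPM (log2 fold change 1.40 ± 0.25, 95% interval of the fold 1.804 to 3.87, adjusted p = 0.756 by edgeR). In monocytes it was at 2.53, 1.85, 3.84 and 5.19 CPM (1.07 ± 0.27, fold 1.36 to 3.23, adjusted p = 0.726 by edgeR). Genotypes separated in this direction in 16.6% of all genes tested in NK cells and 17.0% in monocytes, so a separation of this kind was common among all genes. In NK cells Mt2 passed by edgeR without cKO replicate 1 (adjusted p = 0.0184) and without cKO replicate 2 (adjusted p = 0.0256). In each of these fits the cKO group is 1 library, assumed to vary like the WT pair, and the spread comes from that pair alone.

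Mt1 was also higher in both cKO libraries of the NK cells, at 61.9, 53.4, 87.7 and 68.7 CPM, with a smaller difference (0.38 ± 0.15, fold 1.03 to 1.65, adjusted p = 0.993 by edgeR). In macrophages Mt1 (0.26 ± 0.37, fold 0.652 to 2.20) and Mt2 (0.48 ± 0.38, fold 0.745 to 2.62) overlapped between genotypes, since cKO replicate 1 was highest and cKO replicate 2 lay with the WT libraries. Without cKO replicate 1 both estimates turned negative, at −0.40 for Mt1 and −0.08 for Mt2. In monocytes Mt1 differed by 0.10 ± 0.21 (fold 0.757 to 1.51), and by −0.27 without cKO replicate 1.

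In T cells the interval was the widest. Mt1 differed by 0.73 ± 0.60 (fold 0.628 to 4.40) and Mt2, at 1.57, 14.7, 27.8 and 13.8 CPM, by 1.03 ± 0.69 (fold 0.665 to 6.30). Genotypes overlapped for both, because WT replicate 1 was the lowest library and WT replicate 2 lay among the cKO libraries. Without WT replicate 2 both passed, with log2 fold changes of 2.27 for Mt1 and 3.67 for Mt2 (adjusted p = 0.0252 for each by edgeR). WT replicate 1, with 7 Mt2 UMIs, is then the only WT library, and the spread comes from the cKO pair alone. For Mt2, 1 cell of cKO replicate 1 held 85 of the 153 UMIs, and without the cell richest in Mt2 of each library the levels were 1.13, 13.6, 12.4 and 12.03 CPM. WT replicate 1 was also the library with only 55 CD8 T cells with Pdcd1, against 393, 98 and 281. Within that gate Mt1 differed by 0.68 ± 0.68 and Mt2 by 0.44 ± 0.65 between genotypes. Both were near 0 without WT replicate 1 (−0.03 and −0.05), and Mt1 reached 3.21 without WT replicate 2, which left the 14 Mt1 UMIs of WT replicate 1 as the WT value. In regulatory T cells Mt1 differed by −0.08 ± 0.39, and by −0.53 to 0.74 with 1 library left out. In conventional CD4 T cells the estimate for Mt1 was 2.09 ± 0.81 (adjusted p = 0.999 by edgeR), with overlapping libraries and the single cell described above, and it was −1.15 without cKO replicate 1. Mt2 had too few counts to be tested there with all 4 libraries. It passed without WT replicate 1 (3.47, adjusted p = 0.0300 by edgeR), a fit with WT replicate 2 as the only WT library.

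Slc30a1 and Mtf1 differed little between genotypes in all 4 lineages. For Slc30a1 the log2 fold changes were −0.11 ± 0.17 in macrophages, −0.17 ± 0.15 in monocytes, −0.17 ± 0.17 in T cells and 0.02 ± 0.26 in NK cells. In T cells both cKO libraries lay below both WT libraries, as did 14.8% of genes there. For Mtf1 they were 0.16 ± 0.20, 0.03 ± 0.12, 0.06 ± 0.20 and −0.05 ± 0.15. After TMM scaling, Mtf1 in NK cells was at 23.6, 22.7, 22.6 and 22.2 CPM, with cKO just below WT, as for 17.1% of genes there. The 95% intervals of the fold for these 2 genes lay between 0.675 and 1.55 in the 4 lineages. Between pairs of lineages the genotype difference of each of the 4 genes was compared by an interaction term, and none of the 24 passed. The nearest was Mt2 in NK cells against macrophages (0.74 ± 0.35, adjusted p = 1.00 by edgeR).

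**Figure D5:**
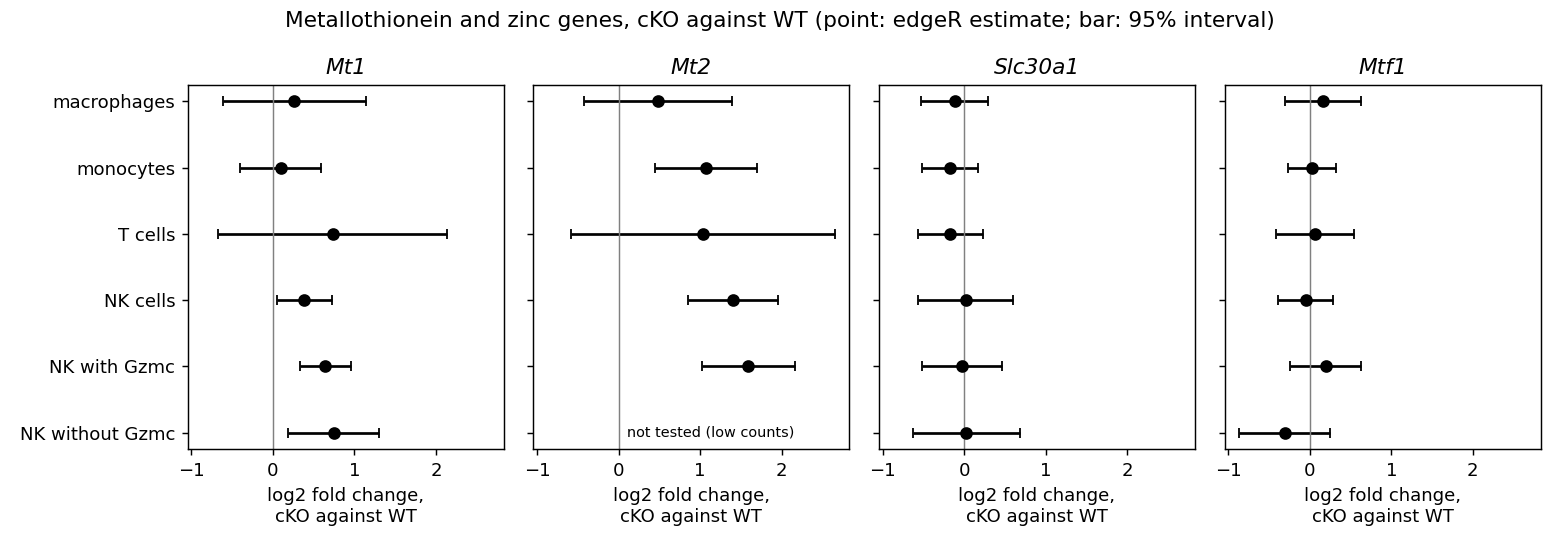
Log2 fold change of Mt1, Mt2, Slc30a1 and Mtf1, cKO against WT, in 4 lineages and in NK cells with and without Gzmc. Points are edgeR estimates, bars their 95% intervals, and the vertical line marks no difference. The estimates of Mt2 in NK cells (1.40), NK cells with Gzmc (1.59) and monocytes (1.07) have intervals that lie above 0, as do those of Mt1 in the 3 NK gates.

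NK cells with Gzmc were the 1 gate in which a gene of the 4 passed between genotypes. Mt2 was at 7.05, 7.07, 19.5 and 25.4 CPM there, from 36, 19, 89 and 51 UMIs in 14, 13, 32 and 19 cells. Both cKO libraries lay above both WT libraries, as for 16.5% of all genes in this gate. The log2 fold change was 1.59 ± 0.27 (fold 2.04 to 4.47), with an adjusted p of 0.0425 by edgeR. The adjustment covers the 9591 genes of this gate, and not the 4 lineages and 14 finer gates in which the 4 genes were examined. Only 4 of 9591 genes passed (0.0417%): Mt2 and Ifng, the interferon-gamma gene (0.90), were higher, and the chemokine gene Cxcl2 (−3.14) and Pclaf (−0.87) lower. Without the cell richest in Mt2 in each library the levels were 3.73, 5.64, 16.5 and 21.2 CPM. The cells of this gate are part of the NK cells above, so the 2 results are not independent.

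The call for Mt2 in this gate was lost under several settings while the estimate stayed between 1.43 and 1.81. Its adjusted p was 0.526 by DESeq2, 0.0515 by edgeR with likely doublets kept, 0.120 without the barcodes shared by WT replicate 1 and cKO replicate 2, and 0.392 without WT replicate 1. Of the shared barcodes 46 lay in this gate in WT replicate 1 and 4 in cKO replicate 2. With a stricter gate it was 0.0368. Without WT replicate 2, cKO replicate 1 or cKO replicate 2 it was 0.0178, 0.000366 and 0.00428, but each of these fits, like that without WT replicate 1, takes its spread from the pair left in the other group.

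Mt1 in NK cells with Gzmc was higher in both cKO libraries too, at 104.8, 84.8, 163 and 140.5 CPM (0.64 ± 0.15, fold 1.26 to 1.94, adjusted p = 0.363 by edgeR). In NK cells without Gzmc Mt1 was at 18.0, 12.1, 31.6 and 21.8 CPM, again apart (0.74 ± 0.26, adjusted p = 1.00 by edgeR), as for 16.5% of genes there, and Mt2 had too few counts to be tested. Slc30a1 (−0.03 ± 0.23) and Mtf1 (0.19 ± 0.20) did not separate in the gate with Gzmc. The macrophage markers, some of which the gate limits, summed to 41.1, 27.5, 60.8 and 14.4 CPM in it. A part of carried macrophage RNA in the genotype difference of Mt2 was not tested.

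Heat shock genes leaned the same way as Mt1 and Mt2. In NK cells with Gzmc 12 of 14 heat shock and dissociation genes had a positive estimate and none passed (median 0.20, against −0.003 over all genes, of which 49.5% were positive). Hspa1a was at 1205, 842, 2017 and 1741 CPM (0.84 ± 0.15, adjusted p = 0.0521 by edgeR). In the 4 lineages 12, 13, 12 and 13 of the 14 were positive, with medians of 0.15, 0.15, 0.11 and 0.16 against medians of all genes between −0.010 and −0.003, and none passed. These genes also respond to tissue dissociation and thawing, whose part in the metallothionein differences was not tested.

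The other lists had no gene that passed between genotypes in a lineage either. Of the Slc30 exporters 4 of 5, 2 of 5, 3 of 5 and 2 of 5 had positive estimates in macrophages, monocytes, T cells and NK cells, and of the Slc39 importers 3 of 10, 4 of 10, 5 of 11 and 3 of 11. Slc39a14 came first among the importers in monocytes (−0.66 ± 0.23, adjusted p = 0.819 by edgeR). Hypoxia-induced genes were positive for 13 of 16 in macrophages and 14 of 16 in monocytes, but for 5 of 13 in T cells and 2 of 13 in NK cells. Iron and copper genes were positive for 9 of 13, 11 of 15, 5 of 13 and 3 of 13, oxidative stress genes for 2 of 11, 2 of 11, 0 of 10 and 5 of 10, and glucocorticoid-induced genes for 2 of 10, 1 of 10, 5 of 10 and 5 of 10. Of the S100 genes, 2 of 2 were positive in macrophages and 1 of 2 in monocytes. Mt3 was tested in T cells only (−0.29) and Mt4 in no lineage. Between 47.8% and 49.1% of all genes had a positive estimate in these lineages.

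Among the other finer gates, classical monocytes held the largest estimate of Mt2 of those with enough counts for a test, at 2.29, 2.37, 5.25 and 8.89 CPM (1.55 ± 0.33, adjusted p = 0.999 by edgeR). The genotypes were apart there, as for 15.1% of genes in that gate. Slc30a1 in interferon-induced monocytes was at 48.0, 48.8, 40.7 and 35.1 CPM, lower in both cKO libraries (−0.39 ± 0.16, adjusted p = 1.00 by edgeR), as were 16.3% of genes. A single gene passed in that gate (0.0106% of those tested), and it was Saa3, the gene of an acute-phase protein (2.06, higher in cKO).

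The genotypes separated in opposite directions for Slc30a1 between macrophage gates, and for Mtf1 between Cx3cr1 macrophages and Arg1 monocytes. Slc30a1 was higher in both cKO libraries of Mmp12 macrophages, at 8.05, 5.88, 10.1 and 21.2 CPM, where 16.9% of genes were higher in this way and 16.8% lower. After TMM scaling it was lower in both cKO libraries of Cx3cr1 macrophages, at 18.9, 17.8, 14.7 and 16.2 CPM, as were 16.1% of genes there. Mtf1 was higher in both cKO libraries of the same Cx3cr1 macrophages, at 17.5, 21.2, 22.4 and 25.7 CPM, as were 16.8% of genes there. In Arg1 monocytes Mtf1 was lower in both, at 17.3, 35.9, 16.3 and 16.8 CPM, as were 16.9% of genes, with WT replicate 2 standing far above the rest. Slc30a1 in Mmp12 macrophages had too few counts to be tested, and the other 3 did not pass.

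Mt1 differed by −0.46 ± 0.25 in Cx3cr1 macrophages and by 0.47 ± 0.25 in Arg1 monocytes, and after TMM scaling the genotypes overlapped in both. With 1 library left out the first ran from −0.87 (without cKO replicate 1) to −0.13 (without cKO replicate 2), and the second from 0.05 (without WT replicate 1) to 0.87 (without WT replicate 2). In Mmp12 macrophages, the gate with most metallothionein transcripts, Mt1 differed by 0.24 ± 0.33 and Mt2 by 0.21 ± 0.31. Both were −0.25 without WT replicate 1, and they were 0.98 and 0.91 without WT replicate 2. None of these passed.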

How the data were processed

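The deposited matrices hold raw counts of UMIs for each gene in each barcode. Cell Ranger 6.1.1 wrote them, per the file headers. The submitters' processing notes also name CASAVA 1.8 and Seurat, and the genome build is not given in the sources used here. Per the labels' protocols, tumours were digested with collagenase and the cells frozen and thawed before capture. The members and gene lists were chosen with earlier results of these data known.

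Barcodes with fewer than 300 genes, or with more than 15% of UMIs from mitochondrial genes, were removed. Scrublet (scanpy 1.11.5) called 0 doublets by its own threshold, so the highest scores were removed instead (0.8% per 1000 cells, 422 to 700 cells per library). No clustering was done. T cells carried at least 3 CD3 UMIs, NK cells at least 3 of Ncr1, Klrb1c and Klre1, B cells at least 5 UMIs of B cell markers, and myeloid cells at least 3 UMIs of myeloid markers. Some markers of these 2 gates are not reported here. Macrophages carried at least 20 C1q UMIs, and monocytes at most 5 with at least 5 monocyte UMIs. At most 1 UMI of another lineage was allowed, and no CD3 UMI outside T cells or Ncr1 UMI outside NK cells. Finer gates needed at least 20 cells per library, and a gene "with" Pdcd1, Arg1 (at least 2 UMIs) or Gzmc (at least 3) was set against 0 UMIs.

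UMIs were summed per gate and library and tested with edgeR 4.0.16 (TMM, filterByExpr, quasi-likelihood test, R 4.3.3) at an adjusted p of 0.05. DESeq2 1.42.0, no filter, stricter gates, doublets kept and left-out libraries were alternatives. The removal of shared barcodes and the alternatives within NK cells with Gzmc were added after seeing the data. The fits and thinning were tested on simulated data. For the fits these held large changes in well-counted genes and a small, fixed spread between libraries. They therefore do not check calls on genes with few counts, such as Mt2.

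Named were the 4 members, up to 3 genes per list with the smallest p, and 5 genes most like each member among those with at least 10 CPM in 1 gate. The lists were Mt3 and Mt4, Slc30 exporters, Slc39 importers, iron and copper handling, oxidative stress, glucocorticoid, hypoxia, heat shock and dissociation, and the S100 genes. Ifng, Cxcl2, Pclaf and Saa3 were named after their values were seen.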

Additional observations from a re-analysis of the deposited data

Results flagged for a closer look

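In 8 cases over 7 finer gates Slc30a1 or Mtf1 differed between genotypes in a direction opposed to that of another gate, with both cKO libraries on 1 side of both WT libraries. The values are log2 ratios of the mean CPM of cKO to that of WT. They and the separations were taken after TMM scaling, and the differences between gates were not tested. Slc30a1 was higher in cKO in Mmp12 macrophages (1.12, from 4 to 11 UMIs per library). It was lower in Cx3cr1 macrophages (−0.248), interferon-induced monocytes (−0.374) and CD8 T cells without Pdcd1 (−0.119). Before TMM scaling the genotypes overlapped in CD8 T cells without Pdcd1, at 19.7, 18.4, 17.6 and 18.7 CPM. Mtf1 was higher in cKO in Cx3cr1 macrophages (0.316), classical monocytes (0.115) and CD8 T cells with Pdcd1 (0.669), where WT replicate 1 held only 55 cells. It was lower in Arg1 monocytes (−0.683). Such separations were common among all genes of these gates, from 13.5% to 16.9% per direction.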

How the results depend on the processing

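Counts of genes that passed between genotypes depended on the setting. Without a low-count filter there were 75 in macrophages, 230 in monocytes, 64 in T cells, 50 in NK cells and 34 in NK cells with Gzmc, and Mt2 then passed in monocytes, T cells and NK cells and Mt1 in T cells and NK cells with Gzmc. DESeq2 called 4 in monocytes, 4 in T cells and 4 in NK cells, 700 for CD8 T cells with Pdcd1 and 2697 for NK cells with Gzmc against those without. A stricter gate gave 580 for Arg1 monocytes and 8 in NK cells with Gzmc between genotypes, where keeping doublets or removing shared barcodes gave 0. Leaving out 1 library gave 0 to 44 in macrophages, 0 to 8 in monocytes, 1 to 16 in T cells, 0 to 52 in NK cells, 1 to 47 in NK cells with Gzmc, and 370 to 1232 for CD8 T cells with Pdcd1. The cause was not tested.

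Replicate numbers recur in both groups without a stated pairing. Deviations of same-numbered libraries correlated at −0.198 in macrophages, 0.241 in monocytes, 0.231 in T cells and 0.0642 in NK cells. With 2 libraries per group, crossing the numbers only turns the sign of each correlation. A fit with the replicate number as a block on 4 libraries leaves almost nothing from which to estimate the spread, so its calls are uncertain. With the replicate number as a block, 72 genes passed in monocytes, 7 in NK cells, among them Mt2 (adjusted p = 0.0243 by edgeR), and 17 in NK cells with Gzmc, among them Mt1 (0.0479). The block gave 0 in macrophages, numbered as labelled or crossed, and 0 in T cells.

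Several estimates changed sign; those of the finer gates stand beside their values. Without 1 library the log2 fold change of cKO against WT ran from −0.40 to 0.71 for Mt1 (−0.03 without WT replicate 1) and −0.082 to 1.05 for Mt2 in macrophages, from −0.27 to 0.39 for Mt1 and −0.026 to 0.079 for Mtf1 in monocytes, from −0.20 to 0.28 for Mtf1 in T cells, from −0.39 to 0.56 for Slc30a1 in NK cells and from −0.32 to 0.51 for Slc30a1 in NK cells with Gzmc (0.0044 without shared barcodes). Between gates it ran from −0.042 to 0.12 for Slc30a1 in CD8 T cells, from −0.17 to 0.35 for Mtf1 in NK cells and from −0.13 to 0.16 for Mtf1 in Arg1 monocytes. A stricter gate gave −0.015 for Mtf1 in monocytes, 0.019 in NK cells and −0.31 in Arg1 monocytes. Of the other values of the 4 genes under an alternative, 300 kept their direction and side of the threshold. Mt2 rests on few UMIs per library outside macrophages, which limits the precision of its differences.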

Other observations

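Some macrophages carried many metallothionein UMIs, counted here without thinning to equal depth. At least 10 UMIs of Mt1 and Mt2 together were found in 10.6%, 13.7%, 21.4% and 14.3% of macrophages and in 33.3%, 44.3%, 48.2% and 50.0% of Mmp12 macrophages. The richest single macrophages held 113, 234, 267 and 113. In regulatory T cells the single highest cell held 30.3%, 23.0%, 14.6% and 34.5% of the metallothionein UMIs of the gate.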
